A study of Homo sapiens with 8 samples.

Results

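The miR-181 family was followed in small RNA libraries from HCT116, an established human colorectal cancer cell line. Its 6 members here are the guides hsa-miR-181a-5p, hsa-miR-181b-5p and hsa-miR-181c-5p and the opposite arms hsa-miR-181a-3p, hsa-miR-181a-2-3p and hsa-miR-181c-3p (written without the species prefix from here on), taken by exact name from the 2575 names counted in each library. All 6 were found. The 4 ETBF libraries came from adherent HCT116 cells at passage 16 to 19 that had been kept for 6 hours with enterotoxigenic Bacteroides fragilis, a toxin-secreting gut bacterium, at 500 bacteria per cell. The 4 control libraries came from the same line at the same passages, given bacterial medium with no ETBF according to the protocol and titled as untreated. No genetic change is named for either group. The replicates are not described as separate cultures, so p-values measure the spread between these libraries, which may be technical.

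A miRNA hairpin is cut into a short duplex, of which usually the guide strand is kept by an Argonaute protein and represses messenger RNAs through its seed, bases 2 to 8 from the 5′ end. The other strand, the passenger, is usually degraded. The miR-181 guides are best known from lymphocytes, where miR-181a tunes the response to the T cell receptor, and they are also abundant in brain. In epithelial and liver cancer cells, miR-181b has been described as induced by STAT3 and as repressing CYLD, a brake on NF-kB signalling.

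The mature sequences are shown because the guides share a seed, while the passengers tell the hairpins apart. Capitals mark the seed, and all 6 members were matched in RefSeq, annotated on GRCh38.p14.
miR-181a-5p: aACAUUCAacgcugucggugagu
miR-181b-5p: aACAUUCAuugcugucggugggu
miR-181c-5p: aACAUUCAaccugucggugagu
miR-181a-3p: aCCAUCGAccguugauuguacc
miR-181a-2-3p: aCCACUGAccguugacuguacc
miR-181c-3p: aACCAUCGaccguugaguggac
All 3 guides carry the seed ACAUUCA, and so does miR-181d-5p, a family name outside the 6. Only miR-4262 was found besides them with that seed in the RefSeq table, and it had 0 counts over the 8 libraries. Each of the 3 passengers has a seed of its own: that of miR-181c-3p, ACCAUCG, is the miR-181a-3p seed CCAUCGA moved by 1 base. Counted from 1 at the 5′ end, miR-181b-5p differs from miR-181a-5p by A9U, C10U and A21G, all outside the seed. MiR-181c-5p lies at an edit distance of 1 from miR-181a-5p, a single missing base. The passengers miR-181a-3p and miR-181a-2-3p differ by U5C, C6U and U16C.

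The genome holds the family in 3 clusters of a pair each. MIR181A1 (chr1:198859044-198859153, minus strand, GRCh38.p14) and MIR181B1 (chr1:198858873-198858982, minus strand) lie 61 bases apart in an intron of the long non-coding RNA gene MIR181A1HG (GENCODE 29). MIR181A2 (chr9:124692442-124692551, plus strand) and MIR181B2 (chr9:124693710-124693798, plus strand) lie in an intron of MIR181A2HG, opposite to introns of the nuclear receptor gene NR6A1. MIR181C (chr19:13874699-13874808, plus strand) and MIR181D (chr19:13874875-13875011, plus strand) lie 66 bases apart in an intron of NANOS3 transcripts. The hairpins MIR181A1 and MIR181A2 are shown with both mature arms in capitals, because they give the identical guide and different passengers.
MIR181A1: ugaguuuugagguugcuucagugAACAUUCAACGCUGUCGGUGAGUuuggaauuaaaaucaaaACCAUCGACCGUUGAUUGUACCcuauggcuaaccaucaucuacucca
MIR181A2: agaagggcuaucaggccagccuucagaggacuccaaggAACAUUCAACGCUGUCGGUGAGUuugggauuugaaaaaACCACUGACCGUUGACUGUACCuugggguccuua
A miR-181a-5p read can therefore come from chromosome 1 or 9, whereas miR-181a-3p comes from MIR181A1 and miR-181a-2-3p from MIR181A2. The same holds for miR-181b-5p, which MIR181B1 and MIR181B2 both encode.

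Totals ran from 2591655 to 4706156 counts in the ETBF libraries and from 5243400 to 6522542 in the controls, so every ETBF library was shallower than every control. Levels are given as CPM, counts relative to the library total scaled with TMM factors, and are compared between members without a length term, since the mature sequences are 22 or 23 bases long. Of the 480 miRNAs with enough counts to test, 95 rose (19.8%) and 70 fell (14.6%) with ETBF (edgeR, adjusted over all 480, threshold 0.05). With upper-quartile scaling 71 rose and 89 fell. The epithelial markers fixed for the line were present, led by miR-200c-3p at 13635 ± 543 CPM in controls and 10957 ± 774 CPM with ETBF (SD, 4 libraries each). Of 6 tested markers of colon epithelium 3 fell and 3 did not pass, where 14.6% of all tested miRNAs fell. MiR-215-5p, also on that list, had 78 counts over the 8 libraries and was not tested. The 7 markers summed to 16938 to 20088 CPM with ETBF and to 20281 to 22154 CPM in controls. Over all 8 libraries the lymphocyte marker miR-150-5p had 3 counts, miR-155-5p 2 and the neuronal miR-124-3p 0, whereas other markers on these lists were present. The 8 blood markers summed to 71.2 to 105 CPM with ETBF and to 58.5 to 68.0 CPM in controls, with 1 of 4 tested higher (miR-451a) and 3 not passed, and miR-486-5p averaged 35.3 CPM with ETBF and 37.8 CPM in controls. The 5 neuronal markers summed to 11475 to 14434 CPM with ETBF and to 13430 to 15672 CPM in controls, mostly miR-9-5p at 8489 and 8649 CPM and miR-128-3p at 4295 and 5964 CPM (group means), and 2 of 3 tested fell. Of the other lists, 0 of 3 stromal and muscle markers and 0 of 1 liver marker passed (0 also at an unadjusted p under 0.05, with DESeq2 and with limma-voom). MiR-7641, an entry that resembles ribosomal RNA and was picked after its values were seen, was at 82.7 to 104 CPM with ETBF and at 6.16 to 21.8 CPM in controls. The part of depth, these markers and miR-7641 in the results below was not tested.

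The 3 guides stayed near their control levels, and the chromosome 1 passenger miR-181a-3p rose 1.63-fold. The chromosome 9 passenger miR-181a-2-3p did not follow it. All 6 members passed the filter on low counts: 1 was called higher, 0 lower, and 5 did not pass. Over all tested miRNAs 19.8% were called higher and 14.6% lower, 34.4% in all, so 1 of 6 is near the background. No member was lower at an unadjusted p under 0.05 (0 of 6), with DESeq2 (0) or with limma-voom (0). In bulk RNA, a lower level in every cell and fewer cells with the miRNA cannot be told apart.

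**Figure D1:**
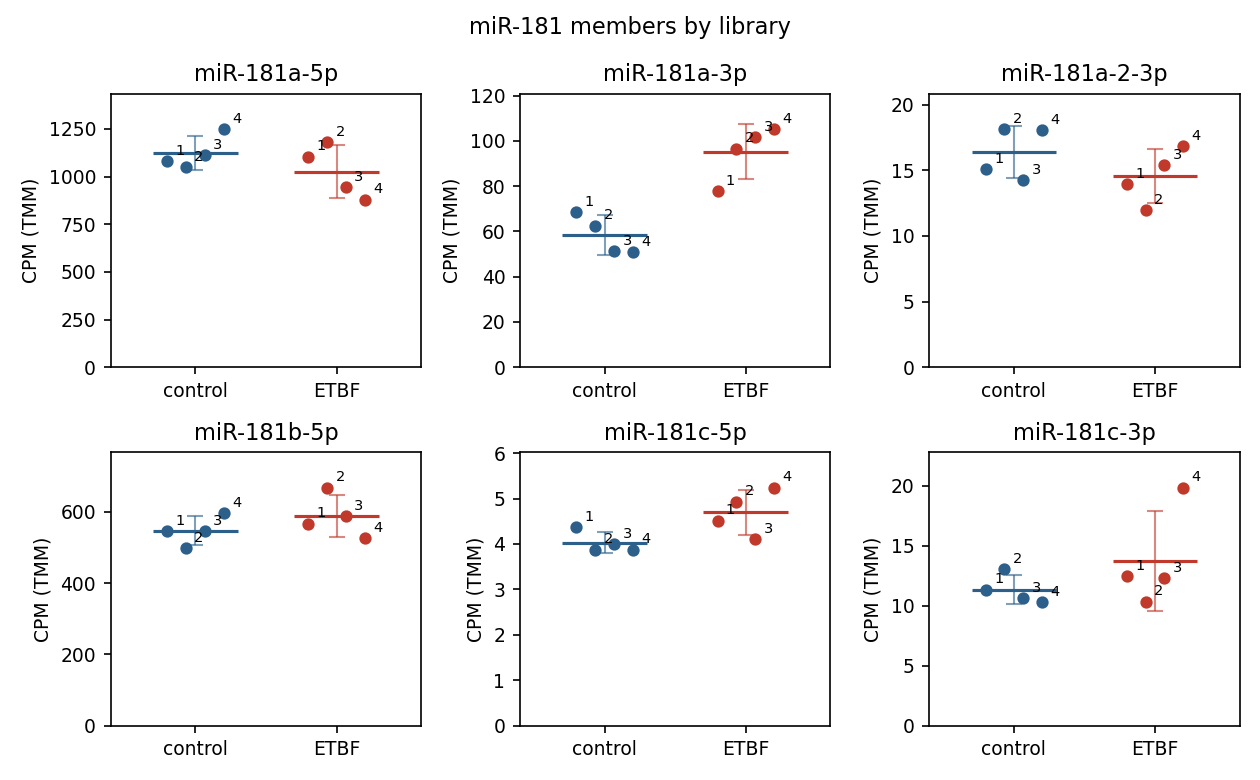
TMM-scaled CPM of the 6 members in each library, with the replicate number beside each point; the horizontal line is the group mean and the bar its SD (n = 4). For miR-181a-3p the ETBF libraries sit between 77.8 and 105 CPM, above all controls at 50.8 to 68.6 CPM, and the groups overlap for the other 5 members.

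MiR-181a-5p, the most abundant member, was at 1104, 1179, 943 and 879 CPM in ETBF replicates 1 to 4 and at 1082, 1048, 1114 and 1248 CPM in control replicates 1 to 4. ETBF replicates 3 and 4 were below all controls, replicates 1 and 2 lay within them, and the groups overlapped. The log2 fold change was -0.13 (SE 0.09, 95% interval -0.33 to 0.07, adjusted p = 0.313). Its level ranked 62nd among the 480 tested miRNAs. The counts of this 2-hairpin miRNA ran from 2350 to 8374 and shared no common divisor above 1, so they show no sign of each read being counted once per hairpin.

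MiR-181b-5p, the partner guide from the same clusters, was at 567, 668, 588 and 526 CPM with ETBF and at 546, 499, 546 and 597 CPM in controls. The groups overlapped, with ETBF replicate 2 the highest and control replicate 2 the lowest of the 8. The log2 fold change was 0.10 (SE 0.08, 95% interval -0.08 to 0.28, adjusted p = 0.389). The sign is thus opposite to that of miR-181a-5p, and neither passed.

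MiR-181c-5p, the guide from chromosome 19, was scarce, with 21, 21, 16 and 14 counts in the ETBF libraries and 22, 22, 21 and 26 in the controls. These amount to 4.51, 4.93, 4.11 and 5.24 CPM with ETBF and to 4.37, 3.87, 3.99 and 3.88 CPM in controls. ETBF replicate 3 lay within the controls and the other 3 lay above them. The log2 fold change was 0.21 (SE 0.22, adjusted p = 0.502), and its 95% interval of -0.26 to 0.69 does not exclude a rise of up to 1.61-fold. Because miR-181a-5p was far more abundant and differs from it by a single base, misread miR-181a-5p could enter this name; that was not tested.

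MiR-181a-3p, the passenger of MIR181A1, was the member that rose. It was at 77.8, 96.5, 102 and 105 CPM with ETBF and at 68.6, 62.5, 51.1 and 50.8 CPM in controls. Every ETBF library was above every control, from 362, 411, 396 and 281 counts against 345, 355, 269 and 341. The mean went from 58.3 ± 8.77 to 95.3 ± 12.2 CPM (SD, n = 4 each), and the log2 fold change was 0.71 (SE 0.12, 95% interval 0.45 to 0.97, adjusted p = 0.000302). Groups without overlap were seen for 33.8% of all tested miRNAs. The rise was called under all 16 alternatives, with log2 fold changes of 0.62 to 0.79.

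MiR-181a-2-3p, the passenger of MIR181A2, was at 14.0, 12.0, 15.4 and 16.8 CPM with ETBF and at 15.1, 18.1, 14.3 and 18.0 CPM in controls. The groups overlapped and 2 ETBF libraries, replicates 1 and 2, were below all controls. The log2 fold change was -0.19 (SE 0.15, 95% interval -0.50 to 0.12, adjusted p = 0.343). The upper bound of that interval lies below the lower bound of the interval for miR-181a-3p, 0.45.

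MiR-181c-3p was at 12.5, 10.3, 12.3 and 19.8 CPM with ETBF and at 11.3, 13.0, 10.6 and 10.3 CPM in controls. ETBF replicate 4, the shallowest library, stood above the other 7, which overlapped. The log2 fold change was 0.24 (SE 0.19, 95% interval -0.15 to 0.63, adjusted p = 0.355), and without that library it was 0.05 (adjusted p = 0.846). In every library this 3p arm had more counts than miR-181c-5p, so in these cells the arm named as the guide was the less abundant product of MIR181C.

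The order of levels was the same in both groups: miR-181a-5p, miR-181b-5p, miR-181a-3p, miR-181a-2-3p, miR-181c-3p and miR-181c-5p. In controls no neighbours in that order overlapped, and with ETBF miR-181a-2-3p and miR-181c-3p did. The step from miR-181b-5p to miR-181a-3p was 9.39-fold in controls and 6.16-fold with ETBF. The 6 members together came to 1760 ± 120 CPM in controls and 1742 ± 178 CPM after ETBF (SD, 4 libraries a group). MiR-181a-5p made up 58.8% ± 2.64 of that sum with ETBF and 63.8% ± 0.884 in controls. MiR-181b-5p made up 33.7% ± 1.43 and 31.1% ± 0.569, and miR-181a-3p 5.54% ± 1.10 and 3.34% ± 0.649.

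The remaining miR-181 names in the files fill in the clusters. MiR-181b-3p, the passenger of MIR181B1 next to MIR181A1, had 48, 27, 24 and 31 counts with ETBF and 21, 11, 17 and 19 in controls, and its test was added after these counts were seen. In CPM it was at 10.3, 6.34, 6.16 and 11.6 with ETBF and at 4.17, 1.94, 3.23 and 2.83 in controls, again with every ETBF library above every control. Its log2 fold change was 1.48 (SE 0.28, 95% interval 0.89 to 2.08, adjusted p = 0.000618), so both passengers assigned to the chromosome 1 cluster rose. The passenger of MIR181B2, miR-181b-2-3p, is not among the counted names and could not be followed. It shares the seed UCACUGA with miR-181b-3p, and whether its reads entered that name was not tested. MiR-181d-5p, the guide beside miR-181c on chromosome 19, had 200 to 453 counts and rose by 0.28 on the log2 scale (SE 0.10, adjusted p = 0.0363). That call was lost in 10 of 16 alternatives, with adjusted p up to 0.213, among them the removal of ETBF replicate 1, 2 or 4 or control replicate 1, 2 or 3. MiR-181d-3p had 0 counts in all 8 libraries, which allows up to 0.447 to 1.12 CPM depending on the library (3 counts, counting error only).

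**Figure D2:**
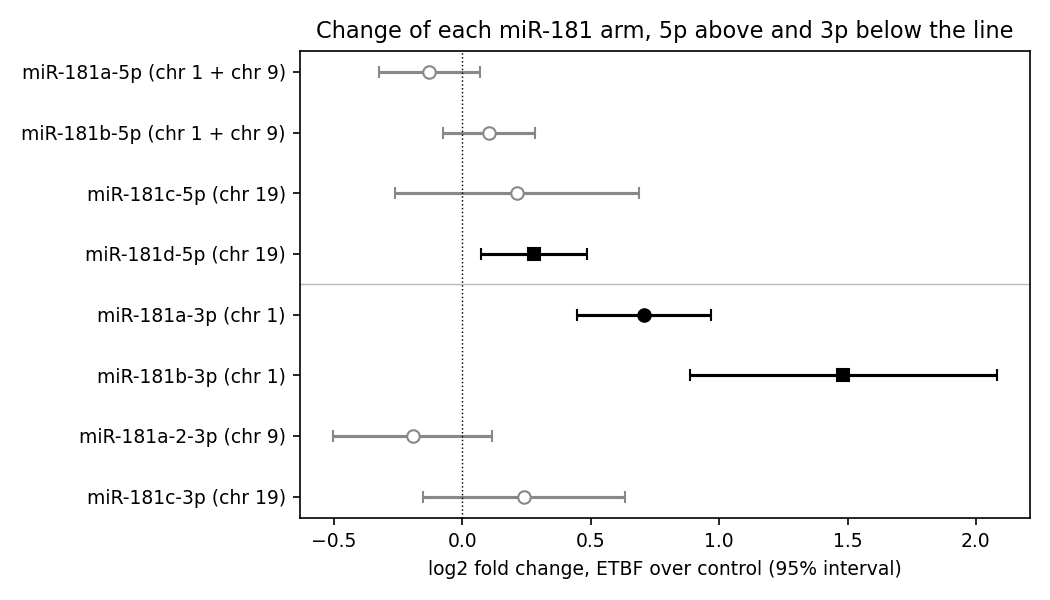
Log2 fold change of ETBF over control for each miR-181 arm with its 95% interval from edgeR, 5p arms above the grey line and 3p arms below, with the chromosome of the encoding hairpins. Circles are the 6 members, squares are miR-181d-5p and miR-181b-3p, and filled symbols passed at an adjusted p of 0.05; miR-181a-3p (0.71) and miR-181b-3p (1.48), both from chromosome 1, lie farthest to the right.

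The passengers of MIR181A1 and MIR181A2 were then compared within each library, which needs no scaling factor. Whether a shift between them lies in the output of the hairpins or in how much of each passenger is kept was not tested. MiR-181a-2-3p made up 15.2%, 11.0%, 13.2% and 13.8% of the summed miR-181a passenger counts in ETBF replicates 1 to 4 and 18.1%, 22.5%, 21.8% and 26.2% in control replicates 1 to 4. The exact binomial (Clopper-Pearson) 95% intervals of single libraries ran from 8.33% to 19.0% with ETBF and from 14.5% to 30.5% in controls, for counting error only. Every ETBF library had a lower share than every control. The share uses the miR-181a-3p counts, so it is not independent of the rise of miR-181a-3p. Of the 138 count ratios between the arms of a hairpin, described below, 36.2% showed groups without overlap. Those ratios differ in kind from this share, and a background of ratios between hairpins was not computed. The mean fell from 22.1% ± 3.33 to 13.3% ± 1.74 (SD, n = 4 each), a difference of -8.83 percentage points (two-sided exact permutation p = 0.0286, which is the minimum over 70 arrangements; adjusted p = 0.0381 over 4 ratios within the family). Leaving out any 1 of the 8 libraries kept the direction. The call was lost each time, with adjusted p from 0.0571 to 0.114 (exact permutation over 35 arrangements). The smallest unadjusted p over 35 arrangements is 0.0286, so these losses do not show that the difference rests on any 1 library.

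The paralog guides were compared in the same way. MiR-181b-5p counts were 51.4%, 56.6%, 62.4% and 59.9% of the miR-181a-5p counts with ETBF and 50.5%, 47.6%, 49.1% and 47.8% in controls. Every ETBF library was above every control, although ETBF replicate 1 exceeded control replicate 1 by little. The log2 ratio averaged -1.04 ± 0.04 in controls and -0.80 ± 0.12 after ETBF (SD, 4 libraries a group), a difference of 0.24 (two-sided exact permutation p = 0.0286, adjusted p = 0.0381). MiR-181c-5p counts were 0.409%, 0.418%, 0.436% and 0.596% of the miR-181a-5p counts with ETBF and 0.404%, 0.369%, 0.358% and 0.310% in controls. ETBF replicate 4 was highest, and the lowest ETBF library was just above the highest control. The difference in log2 ratio was 0.36 (two-sided exact permutation p = 0.0286, adjusted p = 0.0381), and without ETBF replicate 4 it was 0.23. This ratio and that of miR-181b-5p share the miR-181a-5p counts, so their calls are not independent. Both of these calls were lost without any 1 of the 8 libraries (exact permutation, adjusted p from 0.0571 to 0.114). The few arrangements limit p here too, so these losses do not show that the differences rest on any 1 library. As for the passenger share, only a background of another kind was computed: 36.2% of the 138 count ratios between arms showed groups without overlap. For miR-181c-5p against miR-181b-5p the groups overlapped, with a difference of 0.13 (two-sided exact permutation p = 0.429, adjusted p = 0.429). None of the 3 member guides passed a test of its own level.

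**Figure D3:**
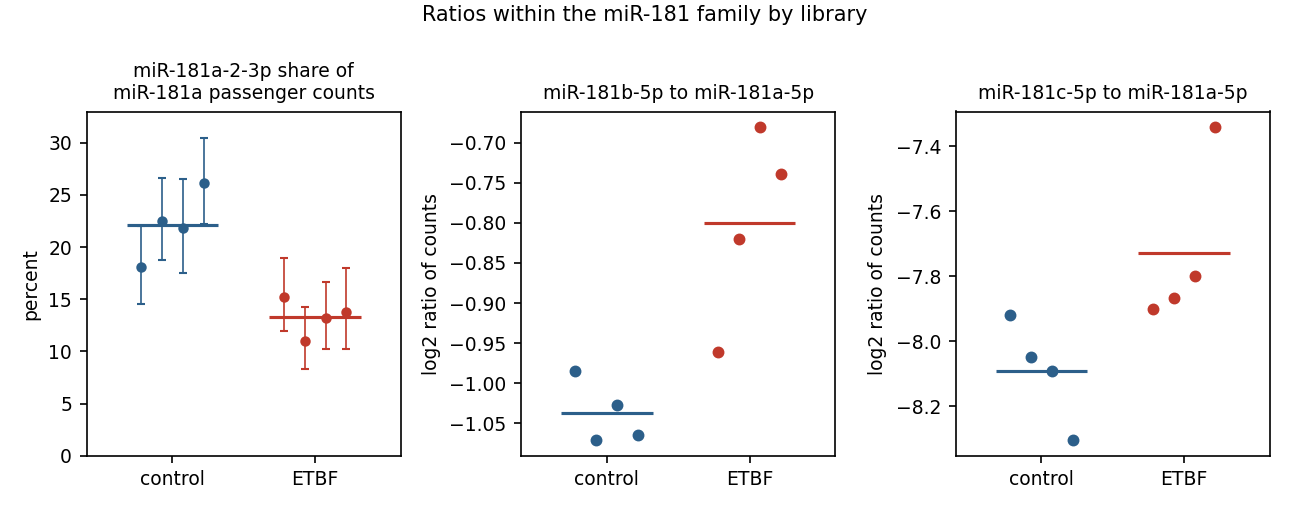
Left, the percent of miR-181a passenger counts that are miR-181a-2-3p in each library with its exact binomial 95% interval; middle and right, log2 ratios of miR-181b-5p and miR-181c-5p counts to miR-181a-5p counts, on axes that do not start at 0. Points are libraries in order of replicate number and lines are group means; the ETBF libraries hold shares of 11.0% to 15.2%, below all controls at 18.1% to 26.2%.

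Guide and passenger of each hairpin were compared as the log2 ratio of 5p to 3p counts after adding 0.5 to each, with limma over the 138 arm pairs that passed the filter. MiR-181a-5p was counted 14.2, 12.2, 9.26 and 8.35 times as often as miR-181a-3p with ETBF and 15.7, 16.8, 21.7 and 24.5 times as often in controls. The groups did not overlap, as for 36.2% of all 138 pairs, with ETBF replicate 4 the lowest and control replicate 4 the highest. The log2 ratio moved by -0.85 (SE 0.21, 95% interval -1.33 to -0.37, adjusted p = 0.0139). Against miR-181a-2-3p the same guide was at 78.5, 97.4, 60.7 and 51.7 with ETBF and at 71.1, 57.5, 77.6 and 68.9 in controls, and the ratio moved by 0.03 (SE 0.21, 95% interval -0.43 to 0.50, adjusted p = 0.911). The ETBF libraries spread over a wider range than the controls there and enclosed them.

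The ratio of miR-181c-5p to miR-181c-3p was 0.368, 0.483, 0.340 and 0.271 with ETBF and 0.391, 0.302, 0.381 and 0.381 in controls. The groups overlapped, and the log2 ratio moved by -0.02 (SE 0.19, 95% interval -0.44 to 0.41, adjusted p = 0.955). For the added pair miR-181b-5p to miR-181b-3p the shift was -1.37 (SE 0.31, adjusted p = 0.00775). Among all 138 pairs 36.2% were called, and in 23.9% the 3p arm gained on the 5p arm, as it did for miR-181a-3p.

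**Figure D4:**
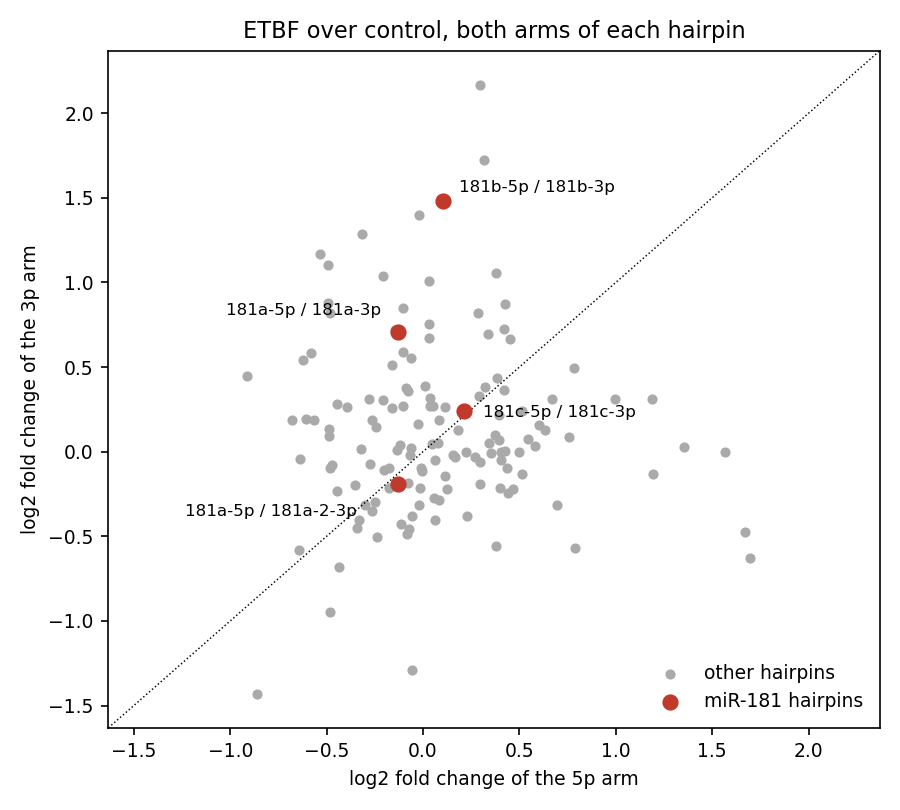
Log2 fold change (ETBF over control) of the 3p arm against that of the 5p arm for 138 pairs of arms, with the miR-181 pairs in red and the dotted line marking equal change. The pair miR-181a-5p and miR-181a-3p (-0.13 and 0.71) lies above the line among many grey points, and the pairs with miR-181a-2-3p and miR-181c-3p lie close to it.

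A rise of the less abundant arm was common in these libraries. Outside the family, 41 of 134 minor arms rose (30.6%) and 11 fell, with a median log2 fold change of 0.18, against 22 of 128 major arms (17.2%) and 35 that fell. Of those 134 minor arms, 25 had a larger log2 fold change than miR-181a-3p and 5 a larger one than miR-181b-3p. Of 41 other arms whose names carry a hairpin number, such as the passenger miR-125b-1-3p, 19 had enough counts to test. This list leaves out miR-181a-2-3p, and miR-219a-1-3p on it was the more abundant arm of its pair. Of the 19 tested, 10 rose, 9 did not pass and 0 fell (0 also at an unadjusted p under 0.05, with DESeq2 and with limma-voom). The median of those 19 was 0.79, against 0.01 over all tested miRNAs. MiR-125b-1-3p rose by 1.28 (SE 0.08, adjusted p = 1.15e-08), whereas miR-16-2-3p (-0.06, SE 0.08) and miR-24-2-5p (-0.02, SE 0.10) did not pass.

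Other guides with 2 tested passengers that both carry a hairpin number give a comparison for the miR-181a pair, set out after its values were seen. Pairs with 1 unnumbered name were left out, such as let-7a-3p at 0.31 and let-7a-2-3p at 1.04. MiR-16-1-3p rose by 2.17 while miR-16-2-3p was at -0.06. For let-7f both rose, let-7f-1-3p by 0.85 and let-7f-2-3p by 0.59. For miR-24 neither passed, with miR-24-1-5p at -0.30 and miR-24-2-5p at -0.02. MiR-26a-2-3p rose by 0.88 and miR-26a-1-3p stood at 1.10 (adjusted p = 0.0669), and miR-29b-1-5p rose by 1.19 with miR-29b-2-5p at 0.67 (adjusted p = 0.0758). The difference within these other pairs was not tested.

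Guides that, like miR-181a-5p and miR-181b-5p, are made from more than 1 hairpin went both ways. Of 19 tested, 4 rose, 6 fell and 9 did not pass, with a median log2 fold change of -0.10, where 34.4% of all tested miRNAs were called. MiR-19b-3p rose by 0.49, while miR-26a-5p fell by 0.49 and miR-128-3p by 0.47. MiR-7-5p, a repressor of EGFR signalling, was at 0.12 (SE 0.08) and let-7f-5p at -0.11 (SE 0.06), and let-7a-5p, which represses RAS genes, fell by 0.21 (SE 0.06, adjusted p = 0.0170). Of 11 tested miRNAs described as responsive to inflammatory signalling, 3 rose, 4 fell and 4 did not pass (7 of 11, against 34.4% of all tested), with a median of -0.11. MiR-21-3p rose by 1.40 and miR-146b-5p fell by 0.49. The 3 most abundant did not pass: miR-21-5p was at -0.02 (SE 0.07), miR-221-3p at -0.11 (SE 0.06) and miR-9-5p at -0.03 (SE 0.09).

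The miRNAs whose log2 CPM ran most alike over the 8 libraries were named for each member as a description, since these points share libraries and depth. For miR-181a-5p they were miR-3065-5p (r = 0.91) and miR-659-5p (r = 0.88), and for miR-181b-5p miR-29a-3p (r = 0.90) and miR-196b-5p (r = 0.83). MiR-181a-3p ran closest to miR-542-3p (r = 0.96) and miR-7-1-3p (r = 0.96), which both rose too, by 0.82 and 0.26. A shared step between the groups enters the correlation over 8 libraries, so that rise is no separate result. MiR-181a-2-3p ran closest to miR-1287-5p (r = 0.89) and miR-218-5p (r = 0.80). MiR-181c-5p was nearest to miR-130b-3p (r = 0.94) and miR-421 (r = 0.87), and miR-181c-3p to miR-26a-1-3p (r = 0.89) and miR-550a-5p (r = 0.85). Between members, miR-181a-5p and its passenger miR-181a-3p ran in opposite directions (r = -0.65). That was not particular to the arms of a hairpin, since miR-181a-5p and miR-181c-3p were more opposed (r = -0.85). MiR-181a-5p and miR-181b-5p ran together only in part (r = 0.49).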

How the data were processed

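Small RNA of 4 ETBF and 4 control libraries of HCT116 cells was grouped by the sample titles. The authors deposited raw read counts per mature miRNA name, made with Trimmomatic, FastQC and featureCounts on GRCh37.p5 per the submitters' processing notes; the aligner, software versions, miRNA annotation and strandedness were not given in the sources used here. Totals of 2591655 to 6522542 counts set the precision. Within groups, chi-square per degree of freedom between libraries was 23.6 to 147, so no library was a copy of another. That does not show that they came from separate cultures.

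Counts were tested in R 4.3.3 with edgeR 4.0.16 (quasi-likelihood, TMM, default filter at a minimum count of 10, 2-sided, Benjamini-Hochberg over 480 miRNAs); SE is the log2 fold change over the square root of F, and intervals use it with edgeR's degrees of freedom. Arm ratios used limma 3.58.1, and ratios within the family an exact permutation test over 70 arrangements. Scripts were tested on simulated data. Alternatives were RLE, upper-quartile and total-count scaling, no filter, a minimum count of 50, DESeq2 1.42.0, limma-voom, a replicate block, 5 counts added for ratios, and leaving out each library. Named miRNAs were the members, up to 3 of the most abundant tested members of each list and, per member, the 2 with the highest Pearson correlation of log2 CPM (prior count 2). MiR-150-5p, miR-155-5p, miR-124-3p, miR-7641, miR-19b-3p, miR-26a-5p, miR-128-3p, miR-21-3p, miR-146b-5p, the passengers of other 2-hairpin guides and the tests of miR-181b-3p and miR-181d-5p were picked after their values were seen, as was the permutation test with a library left out. MiR-19b-1-5p, miR-215-5p and the let-7a passengers were also picked after their values were seen. The members and lists were chosen with earlier results of these data known. Sequences are from RefSeq (GRCh38.p14), whose coordinates were not used with the files.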

Additional observations from a re-analysis of the deposited data

Results flagged for a closer look

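In control replicate 2 the log2 ratio of miR-181c-5p to miR-181c-3p was -1.73, and the nearest other control was at -1.39. That gap took 0.892 of the range of the 4 controls. It was the only 1 of 32 groups of 4 checked in which a library stood so far apart, where chance gives about 1 in 20. The value rests on 22 and 74 counts.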

How the results depend on the processing

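The rise of miR-181a-3p passed under all 16 alternatives (adjusted p up to 0.00307), and the other 5 members kept their sign and did not pass in each alternative that gave a value; miR-181c-5p gave none with a minimum count of 50. Leaving out single libraries gave 78 to 92 miRNAs higher and 62 to 71 lower over all tested. The arm ratio of miR-181a-5p to miR-181a-3p lay between -0.98 and -0.73 without single libraries (adjusted p up to 0.0413). With a replicate block it was -0.85 with an adjusted p of 0.0592; same-numbered libraries correlated at -0.058 to 0.061 in their deviations, and 0 of 4 ETBF libraries correlated best with the control of their own number, so the numbers were not treated as pairs. The block changed no call among the members' fold changes or the other arm ratios; for the ratios among guides it gave values with no test, and the share of miR-181a-2-3p was not run with it. The ratios near 0 changed sign: miR-181a-5p to miR-181a-2-3p was -0.01 (-0.011) with 5 counts added and -0.13 to 0.18 without single libraries, and miR-181c-5p to miR-181c-3p was 0.02 (0.024) with 5 counts added and -0.16 to 0.12 without single libraries; the cause was not tested. Without single libraries the share of miR-181a-2-3p differed by -10.2 to -7.48 points, the log2 ratio of miR-181b-5p to miR-181a-5p by 0.20 to 0.29 and that of miR-181c-5p to miR-181a-5p by 0.23 to 0.42. These 3 differences were put to an exact permutation test over 35 arrangements, chosen after seeing the data. Its unadjusted p ran from 0.0286, the minimum over 35 arrangements, to 0.0857, and its adjusted p from 0.0571 to 0.114. Each difference lost its call whichever of the 8 libraries was left out. With so few arrangements, that does not show that it rests on any 1 library. The ratio of miR-181c-5p to miR-181b-5p kept its sign (0.02 to 0.19) and did not pass. Low counts limit miR-181c-5p (14 to 26) and miR-181b-3p (11 to 48).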
